A study of Zea mays with 4 samples.

Results

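The sequences described here carry 6 microRNA names that are doubtful as microRNAs, namely miR5368, miR6173, miR4995, miR6300, miR8175 and miR6478. Members were all rows of the deposited table whose name holds one of these numbers with no further digit, with each distinct sequence taken once. This gave 56 sequences out of 319 in the whole table, from 80 of its 500 rows. The names were picked with the values known, because many of their sequences stood high in the library CK3, so the level in CK3 is a description and supports nothing.

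Small RNA was sequenced from leaves of maize (Zea mays) at the 4-leaf stage, with 1 library in each of 4 groups. CK1 and CK3 are libraries whose labels give only the tissue and which are called unfed here, T1 came from leaves fed on for 1 day by Spodoptera frugiperda, the fall armyworm, and T3 from leaves fed on for 3 days. The labels do not give the maize line, the meaning of the numbers in CK1 and CK3, or whether a library pools several plants. With 1 library a group no difference has a replicate check, no test was made, and feeding cannot be told apart from any other difference between single libraries. In bulk tissue, fewer cells of a type and less RNA per cell cannot be told apart either.

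A plant microRNA is cut by a Dicer-like enzyme from a hairpin precursor, and it pairs with messenger RNAs along nearly its whole length. The cut makes its 5′ end precise, and its sequence usually begins with U when it is loaded into the main Argonaute protein. Ribosomal RNA (rRNA) and transfer RNA (tRNA) are far more abundant, and their breakdown leaves pieces of many lengths whose ends lie scattered along the parent molecule. Some of those pieces were entered in microRNA databases under microRNA names. The name prefixes stand for the plant in which a name was given: gma for soybean, hbr for the rubber tree, ath for Arabidopsis and ptc for poplar.

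The 56 sequences fell into 11 stretches of overlapping sequence when any pair sharing at least 12 identical bases in a row was joined. No stretch mixed 2 names. The composites below, each joined from the overlapping sequences of a stretch and shown because they carry the overlap described next, do not mean that a read spanned the whole length. They are written 5′ to 3′ as DNA letters, as in the deposited table.
miR5368 stretch 1: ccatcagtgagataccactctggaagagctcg
miR5368 stretch 2: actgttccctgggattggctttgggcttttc
miR5368 stretch 3: cctgcgcagcttaggtggaaggcgaag
miR5368 stretch 4: gggacagtctcaggtagacg
miR6173 stretch 1: cagtgctgtagctaacgcgtt
miR6173 stretch 2: gattagagaccccagtagtcctag
miR6173 stretch 3: agccgtaaacgatggatactag
miR4995: tcataggcagtggcttggttaagggaatg
miR6478: ccgaccttagctcagttggtaga

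The remaining stretches, miR6300 and miR8175, are shown with the bases in capitals that could pair with each other.
miR6300: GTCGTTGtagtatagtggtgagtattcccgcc
miR8175: gttcgatccccggCAACGGCgcca
All 3 miR8175 sequences ended in CCA, the triplet that closes every mature tRNA. In a tRNA the first 7 bases pair with the 7 bases that precede the last 4. The first 7 bases of miR6300 could pair in this way, G with T counted as a pair, at all 7 positions with each of the 3 miR8175 sequences. Of the 10 other sequences in the table that end in CCA, 1 reached 6 paired positions and the rest 5 or fewer. As background, the miR6300 stretch resembles the 5′ end of plant aspartate tRNA and miR8175 its 3′ end, and the miR6478 stretch resembles the 5′ end of plant tyrosine tRNA. Stretches 1 and 3 of miR6173 resemble the small-subunit rRNA of chloroplasts and bacteria. No maize genome was used, so the origin of none of the 56 sequences was tested, and no resemblance is stated here for miR5368 and miR4995.

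**Figure D1:**
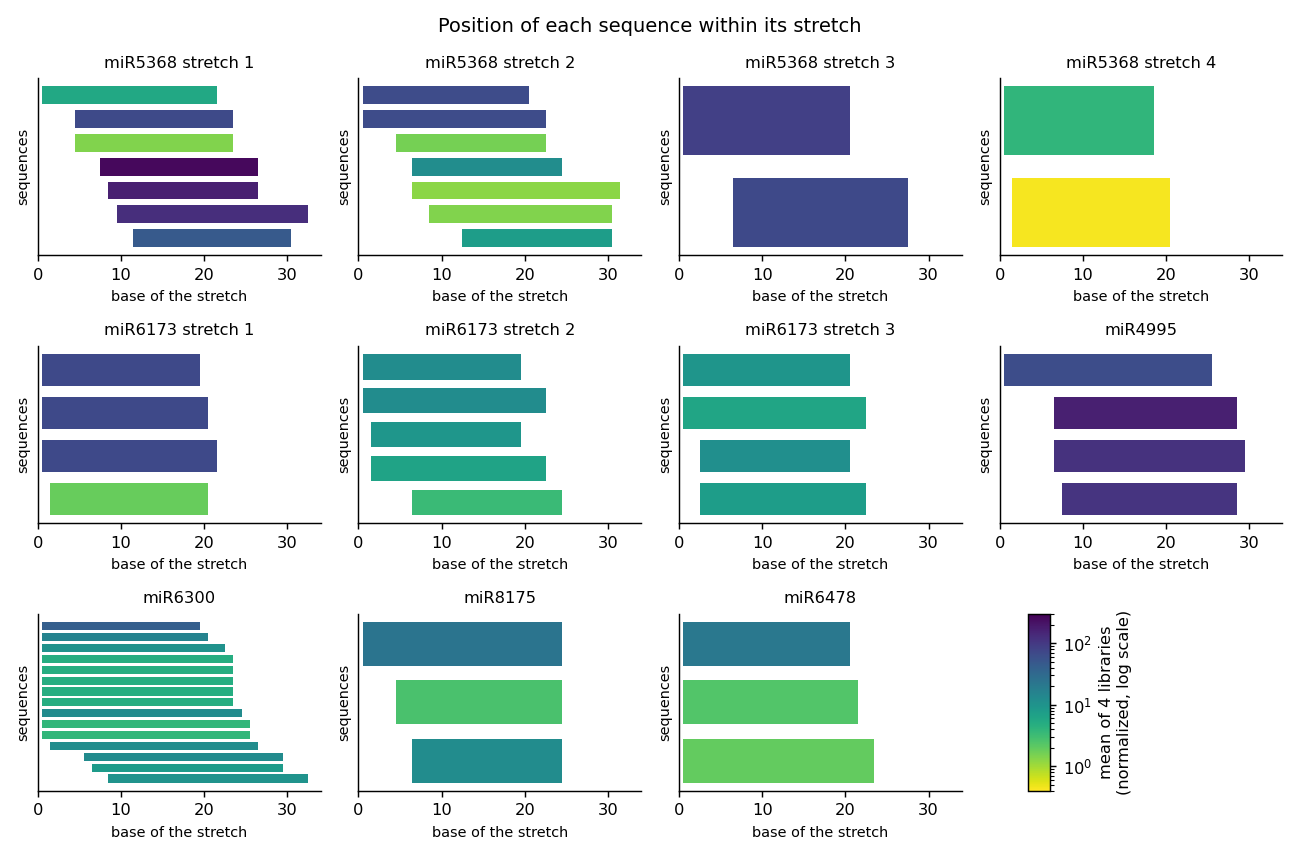
Each horizontal bar is a sequence, placed by its first and last base (x axis, base counted from the start of its stretch) and coloured by its mean normalized value over the 4 libraries on a log scale. The starts are staggered in most of the 11 stretches, while in miR6478 all 3 sequences share the start and in miR8175 all 3 share the end.

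The ends of the sequences were spread as the plot of positions shows. The 7 sequences of miR5368 stretch 1 had 6 different starts and 5 different ends. The 15 miR6300 sequences had 5 starts and 9 ends, and 11 of the 15 began at the first base. Seeds, meaning bases 2 to 8, serve here only to group sequences by their 5′ end. The 56 sequences held 35 different seeds, of which 25 occurred in a single sequence and none in more than 1 name. As the 263 other sequences held 184 different seeds, this count does not set the members apart. The most frequent seed, in 11 miR6300 sequences, also occurred in 1 other sequence of the table, ath-miR858a_L-1R+1_1ss21TC. A sequence with 2 names, gma-MIR5368-p3_1ss4AG, was listed both as a p3 and as a p5 entry. In stretch 2 of miR5368, 5 overlapping sequences were named p5 and 2 were named p3, and in stretch 2 of miR6173 3 were named p5 and 2 p3. The marks p5 and p3 stand in microRNA naming for opposite arms of the hairpin, which do not overlap.

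The sequences also differed from the rest of the table in length and first base. Only 12 of 56 (21.4%) were 21 or 22 nt long, against 154 of the 263 other sequences (58.6%). At 18 or 19 nt there were 18 of 56 (32.1%) against 38 of 263 (14.4%). At 23 to 25 nt there were 18 of 56 (32.1%) against 52 of 263 (19.8%), and the median was 21 nt in both sets. The names differed, with 10 of 18 miR5368 and 6 of 13 miR6173 sequences at 18 or 19 nt. In miR6300, 12 of 15 had 23 to 25 nt. The counts of length and first base include nested sequences and numbered repeats with equal values, such as gma-miR6300_R+5_1 to gma-miR6300_R+5_5. T, which stands for U in the RNA, was the first base of 6 of 56 (10.7%) against 113 of 263 (43.0%). Substitution marks, such as 1ss or 2ss, stood in the names of 33 of 56 (58.9%) against 79 of 263 (30.0%). In all 40 substitutions marked in the members' names, the second letter equalled the base of the sequence at the stated position, so the mark was read as a difference from the named reference. Every member overlapped another member by at least 12 bases, whereas 142 of the 263 others (54.0%) overlapped one of their own set. The members were taken as whole names with several sequences each, so their overlap was partly set by that choice.

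The deposited values are normalized by the authors, and in each library every member value above 0 was a whole multiple of the same smallest amount, to within 0.01 of a read. This amount, called the step, was taken as the value of 1 read. It was 0.736 in CK1 and 0.826 in CK3, against 0.303 in T1 and 0.352 in T3, so the fed libraries were the deeper ones. All 319 sequences together stood for 87014 reads in CK1 and 90834 in CK3, against 209054 in T1 and 180674 in T3, repeats included. No member value above 0 stood for fewer than 5 reads, so a member listed at 0 can have been present below that limit. Intervals below come from these implied reads at 95% confidence, cover counting error only, and treat reads without molecular identifiers as if they were independent.

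Some values are repeated in the table. The sequences gma-miR6300_R+5_1 to gma-miR6300_R+5_5, which differ by single bases near the 3′ end, had the same value in every library, and so did hbr-MIR6173-p3_1ss4CT_1, _2 and _3, which are nested. In all 14 sequences fell into 5 such sets. Counting each set once left 47 entries. Sums over stretches below count each set once, and sums over names are given both ways where they differ.

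The 56 sequences together summed to 999 normalized units in CK1 and 4405 in CK3, against 836 in T1 and 1596 in T3. These sums were 1.56%, 5.87%, 1.32% and 2.51% of the total of all 319 sequences. CK3 was thus the highest library and T1 the lowest. With repeats counted once the sums were 915, 3782, 742 and 1423.

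**Figure D2:**
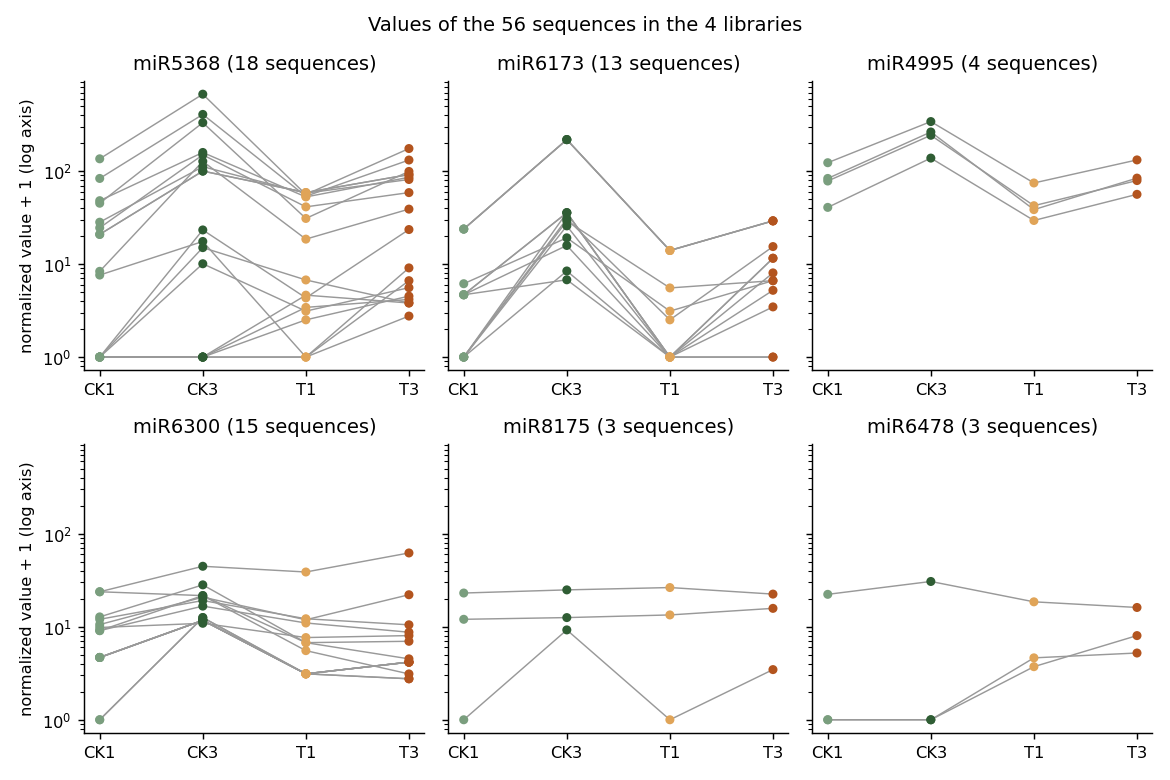
Each point is the normalized value plus 1 of a sequence in a library (log axis), grey lines join the points of the same sequence, and each panel holds a name. CK3 is the highest library for 43 of the 56 sequences, whereas the leading sequences of miR8175 stay between 11.04 and 25.4 in all 4 libraries.

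Under the name miR5368, the 18 sequences summed to 413 in CK1 and 2212 in CK3, against 439 in T1 and 900.2 in T3, and to 393, 2113, 381 and 809 with repeats counted once. Its 3 leading sequences, with the seed in capitals, overlap in stretch 1 and start within 3 bases of each other.
gma-MIR5368-p3_2ss1AT18CA: tGAGATACcactctggaag
gma-MIR5368-p3_1ss17CA: gAGATACCactctggaag
gma-MIR5368-p3_2ss16CA22AC: aGATACCActctggaagagctcg
The first was at 135 in CK1 and 671 in CK3, against 55.1 in T1 and 174 in T3. The second was at 82.4, 406, 52.7 and 131 in the same order, and the last at 44.2, 331, 30.0 and 98.2. In all 3 the order of the libraries was CK3, T3, CK1, T1 from high to low.

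The stretches of miR5368 did not move alike. Stretch 1 was at 292 in CK1 and 1698 in CK3, against 201 in T1 and 507 in T3. Stretch 2 was at 26.5, 138, 68.7 and 131 in the same order, so T1 stood above CK1 there and below CK1 in stretch 1. Stretch 3 was at 74.3, 268, 109 and 165. The ratio of T1 to CK1 was 0.689 in stretch 1 (counting interval 0.608 to 0.782), 2.59 in stretch 2 (1.82 to 3.80) and 1.46 in stretch 3 (1.17 to 1.84). Over the whole name it was 0.969 (0.875 to 1.07), so the name's sum hid opposite differences. Stretch 4, with 2 sequences, was listed at 0 in CK1 and at 9.08 in CK3, 2.12 in T1 and 6.34 in T3.

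Shares within a name do not depend on how the libraries were scaled. Stretch 2 made up 6.74% of the miR5368 reads in CK1 (exact binomial interval 4.77% to 9.21%) and 6.53% in CK3 (5.60% to 7.55%). In the fed libraries it made up 18.04% in T1 (15.96% to 20.3%) and 16.2% in T3 (14.7% to 17.8%). Stretch 1 showed the opposite order, with 74.3% in CK1 and 80.3% in CK3 against 52.9% in T1 and 62.6% in T3. For stretches 1 and 2 the counting intervals of the unfed and the fed libraries did not overlap, although CK3 held several times the miR5368 reads of CK1. In stretch 1, though, those of CK1 (70.4% to 78.0%) and CK3 (78.8% to 81.9%) did not overlap either. Nor did those of T1 (50.1% to 55.7%) and T3 (60.6% to 64.6%). Libraries of the same kind thus also differed there beyond counting error. The shares of stretch 3 were 18.9%, 12.7%, 28.5% and 20.4% in CK1, CK3, T1 and T3. There the intervals of CK1 and T3 overlapped, while those of CK1 (15.7% to 22.5%) and CK3 (11.4% to 14.1%) did not. The fed libraries were deeper, and several low sequences of stretch 2 were listed at 0 in the unfed ones. Over the 8 entries above 0 in all 4 libraries, stretch 2 still had 5.14% in CK1 and 4.83% in CK3, against 15.97% in T1 and 12.04% in T3, all of it from a single entry. The split by feeding was chosen for description after the values were seen.

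**Figure D3:**
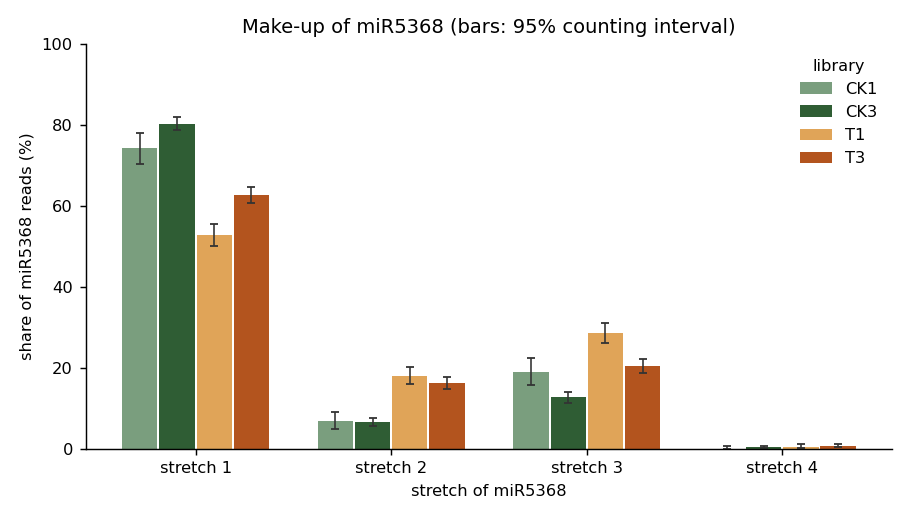
Bars give the share of miR5368 reads (y axis, percent, repeats counted once) that fell in each of its 4 stretches (x axis) in each library, with 95% exact binomial intervals for counting error. Stretch 2 holds 6.74% and 6.53% in the unfed libraries against 18.04% and 16.2% in the fed ones.

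That entry is the leading one of stretch 2, listed as a nested pair.
gma-MIR5368-p5_1ss7TC_1: aCTGTTCCctgggattggct
gma-MIR5368-p5_1ss7TC_2: aCTGTTCCctgggattggcttt
Both were at 19.9 in CK1 and 99.1 in CK3, against 57.8 in T1 and 90.8 in T3. The shorter gma-MIR5368-p5_1ss1TC was listed at 0 in CK1 and was at 22.3 in CK3, 3.33 in T1 and 22.5 in T3. CK3 and T3 were thus nearly level for both, unlike in stretch 1. In stretch 3 gma-MIR5368-p5_2ss6AG20GA was at 47.1, 158, 51.8 and 84.8, and gma-MIR5368-p5_2ss14GA18AG at 27.2, 111, 56.9 and 80.3. Among the weakest, gma-MIR5368-p3_1ss4AG and gma-miR5368_1ss19AG were listed only in T3, at 5.63 and 1.76.

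Under the name miR6173, the 13 sequences summed to 88.3 in CK1 and 884 in CK3, against 47.2 in T1 and 145 in T3, and to 39.0, 415, 21.2 and 78.2 with repeats counted once. CK3 was the highest library for all 13. In stretch 1 the nested set was led by the following sequence, shown with the leading sequence of stretch 2 and a pair from stretch 3, hbr-miR6173_L-2 and hbr-miR6173.
hbr-MIR6173-p3_1ss4CT_3: cAGTGCTGtagctaacgcgtt
hbr-MIR6173-p5_1ss8TG_1: gATTAGAGaccccagtagt
hbr-miR6173_L-2: cCGTAAACgatggatact
hbr-miR6173: aGCCGTAAacgatggatact
The nested set of stretch 1 was at 22.8 in CK1 and 217 in CK3, against 13.0 in T1 and 28.2 in T3 for each of its sequences. Its remaining neighbour hbr-MIR6173-p3_1ss3CT was listed only in CK3, at 7.43. CK3 therefore stood far above the other three libraries in this stretch.

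Stretch 2 of miR6173 was at 11.04 in CK1, 90.0 in CK3 and 24.3 in T3, and all 5 of its sequences were listed at 0 in T1. The pair led by hbr-MIR6173-p5_1ss8TG_1 was at 3.68, 34.7, 0 and 10.6 in CK1, CK3, T1 and T3. The overlapping hbr-MIR6173-p5_1ss7TG was at 34.7 in CK3 and 2.46 in T3 and listed at 0 in CK1 and T1. T1 is the deepest library, where a value of 1.51 was the lowest listed for a member. Stretch 3 was at 5.15, 101, 8.17 and 25.7. There hbr-miR6173, whose name carries no mark, was listed at 0 in CK1 and was at 28.1 in CK3 but only 4.54 in T1 and 5.63 in T3. The longer hbr-miR6173_R+2 was listed only in CK3, at 24.8, and the shorter hbr-miR6173_L-2 was at 29.7 in CK3, 1.51 in T1 and 14.4 in T3.

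Under the name miR4995, all 4 sequences were listed in every library and lay in a single stretch. Their sum was 322 in CK1 and 982 in CK3, against 181 in T1 and 347 in T3. The 3 leading sequences differ by single bases at their ends.
gma-miR4995_L-2R+3: gCAGTGGCttggttaagggaat
gma-miR4995_L-2R+4: gCAGTGGCttggttaagggaatg
gma-MIR4995-p5_1ss21GT: cAGTGGCTtggttaagggaat
The first was at 122 in CK1 and 340.2 in CK3, against 73.6 in T1 and 131 in T3, the second at 82.4, 263, 37.5 and 83.1, and the last at 77.3, 242, 41.5 and 78.2. All 4 sequences were highest in CK3 and lowest in T1, with CK1 and T3 close together. The ratio of T1 to CK1 was 0.563 (counting interval 0.497 to 0.638), and that of T3 to CK1 was 1.08 (0.964 to 1.21).

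Under the name miR6300, the 15 sequences summed to 121 in CK1 and 253 in CK3, against 107 in T1 and 138 in T3, and to 107, 198, 96.9 and 123 with repeats counted once. The sum of T1 did not differ from that of CK1 beyond counting error, with a ratio of 0.908 (0.744 to 1.11). The sequences shown differ in where they end along the stretch.
gma-miR6300_R+1: gTCGTTGTagtatagtggt
gma-miR6300_R+2: gTCGTTGTagtatagtggtg
gma-miR6300_R+6: gTCGTTGTagtatagtggtgagta
gma-miR6300_L-1R+8: tCGTTGTAgtatagtggtgagtatt
gma-MIR6300-p3_1ss15AG: tGTAGTATagtggtgagtattccc
The shortest, gma-miR6300_R+1, was at 22.8 in CK1 and 43.8 in CK3, against 37.8 in T1 and 61.3 in T3, so T3 was the highest. The 20 nt gma-miR6300_R+2 was at 9.57, 19.8, 10.9 and 21.1. The longest of those shown, gma-miR6300_L-1R+8, was at 11.8, 27.3, 5.75 and 3.52, lower in both fed libraries than in either unfed one. The internal gma-MIR6300-p3_1ss15AG was at 22.8, 20.6, 4.54 and 2.11, also lower in both fed libraries. Not every longer sequence was. The 24 nt gma-miR6300_R+6 was at 11.04, 18.2, 11.2 and 9.51, with T1 and CK1 level. The 22 nt gma-miR6300_R+4 was at 8.09, 15.7, 9.99 and 7.75, with T1 above CK1.

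The lengths of the miR6300 sequences thus differed between the unfed and the fed libraries. The 19 and 20 nt sequences summed to 32.4 in CK1 and 63.6 in CK3, against 48.7 in T1 and 82.4 in T3. The sequences of 22 nt and more summed to 74.3, 135, 48.1 and 40.8. The short ones made up 30.3% of the miR6300 reads in CK1 (exact binomial interval 22.99% to 38.5%) and 32.1% in CK3 (26.2% to 38.4%), but 50.3% in T1 (44.7% to 55.9%) and 66.9% in T3 (61.7% to 71.8%). The 4 libraries held 145, 240, 350 and 320 reads of the stretch, in the order CK1, CK3, T3 and T1. With each of the 10 entries left out in turn, both fed libraries stayed above both unfed ones. Without the leading gma-miR6300_R+1 the shares were 11.4%, 12.8%, 18.5% and 34.1% in CK1, CK3, T1 and T3. The limit of 20 nt and the split by feeding were set after the values were seen. The other stretches whose lengths were compared, miR5368 stretch 1, miR8175, miR6478 and miR4995, did not show this order. Sequences of up to 20 nt made up 84.9%, 79.7%, 82.3% and 80.1% of miR5368 stretch 1 in the same order of libraries, and 33.3%, 45.3%, 32.8% and 44.5% of miR8175. In miR6478 the order was the opposite, with 100% in both unfed libraries, against 73.4% in T1 (62.3% to 82.7%) and 57.3% in T3 (45.4% to 68.7%). The lower bounds of CK1 and CK3 there were 88.1% and 90.3%, but CK1 held 29 reads of miR6478 and CK3 36, and its longer sequences could lie under the 5-read limit in both. All 4 miR4995 sequences were longer than 20 nt.

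**Figure D4:**
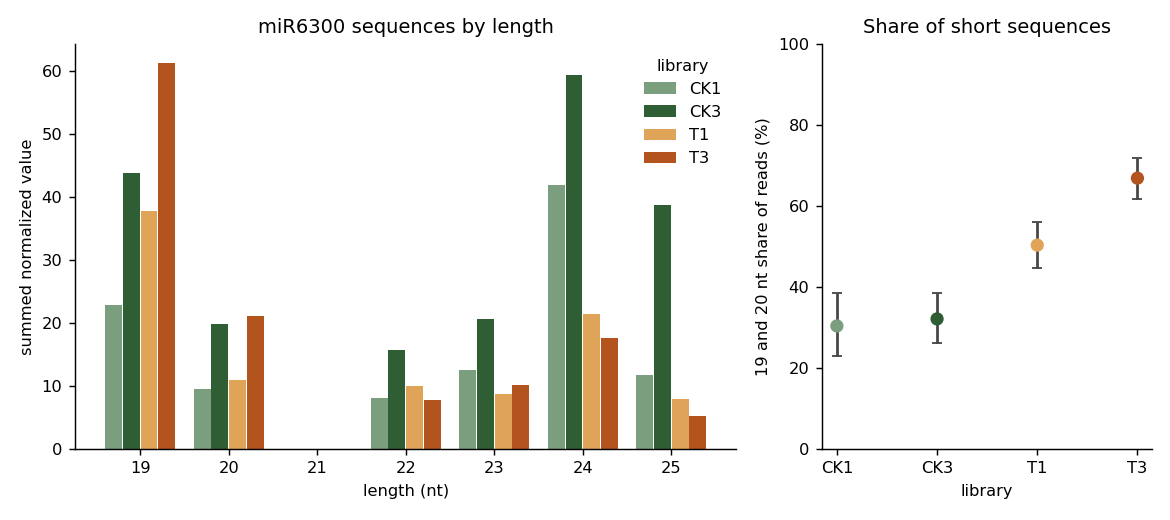
Left, the summed normalized value of the miR6300 sequences (y axis) by length in nt (x axis) and library, repeats counted once; right, the percent of miR6300 reads in the 19 and 20 nt sequences, with 95% exact binomial intervals for counting error. The share is 30.3% and 32.1% in the unfed libraries and 50.3% and 66.9% in the fed ones.

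The names miR8175 and miR6478 were the least variable. The 3 miR8175 sequences summed to 33.1 in CK1 and 43.8 in CK3, against 37.8 in T1 and 38.7 in T3, and the 3 miR6478 sequences to 21.3, 29.7, 23.9 and 26.4. The leading sequences are shown for comparison with the miR6300 stretch, whose 5′ end can pair with miR8175.
ath-miR8175_L+4: gTTCGATCcccggcaacggcgcca
ath-miR8175_L-2: tCCCCGGCaacggcgcca
ptc-miR6478_R-1: cCGACCTTagctcagttggt
The first was at 22.1, 23.9, 25.4 and 21.5 in CK1, CK3, T1 and T3, and the second at 11.04, 11.6, 12.4 and 14.8. The ratio of CK3 to CK1 was 1.32 over miR8175, with a counting interval of 0.871 to 2.01, and the interval was too wide to show that the level was the same. The unmarked ath-miR8175 was listed at 0 in CK1 and T1 and was at 8.26 in CK3 and 2.46 in T3. The leading miR6478 sequence was at 21.3, 29.7, 17.6 and 15.1. The longer ptc-miR6478_1ss21GA and ptc-miR6478_R+2_1ss21GA were listed at 0 in both unfed libraries and were at 2.72 and 3.63 in T1 and at 7.04 and 4.22 in T3. The lowest member value above 0 in the shallower unfed libraries was 3.68 units in CK1 and 5.78 in CK3.

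**Figure D5:**
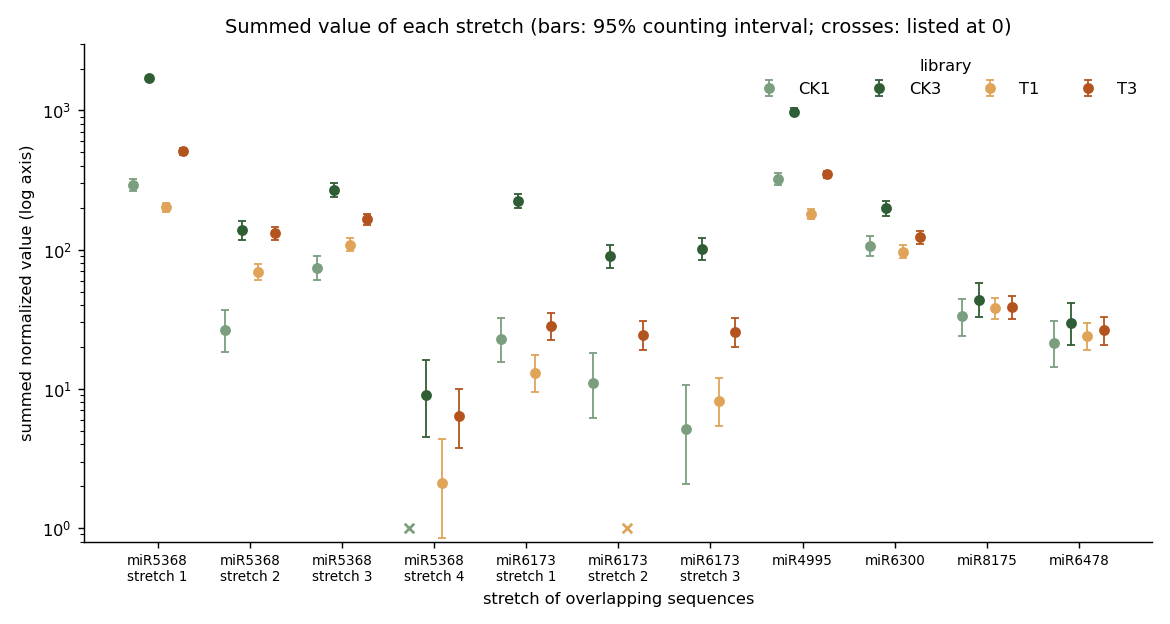
Points give the summed normalized value (log axis, repeats counted once) of each of the 11 stretches in each library, with 95% Poisson intervals for counting error, and crosses mark a stretch listed at 0. CK3 is the highest library in every stretch, by 19.6 times over CK1 in miR6173 stretch 3 and by 1.32 times in miR8175. In stretches 2 and 4 of miR5368, in miR8175 and in miR6478, CK3 does not exceed T3 beyond counting error.

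Single sequences were called higher or lower between libraries by size alone, at a 2-fold difference of value + 1 with at least 10 units in the higher library. Between CK3 and CK1, the contrast the names were chosen on, 36 of 44 compared members were higher in CK3 and none was lower. Of all sequences compared, 28.9% were called higher and 22.5% lower, and nothing is read from the members' count. Such a share over all sequences compared, members included, is called the background below. The ratio of CK3 to CK1 was 10.6 over miR6173 (counting interval 8.01 to 14.4), 5.38 over miR5368 (4.90 to 5.91), 3.05 over miR4995 (2.73 to 3.41) and 1.86 over miR6300 (1.51 to 2.30). It was 1.39 over miR6478 (0.830 to 2.36) and 1.32 over miR8175 (0.871 to 2.01). The order of these ratios is likewise a description, because the names were chosen on this contrast.

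After 1 day of feeding, 4 of 24 compared members were higher in T1 than in CK1 and 3 were lower, while 32 members did not reach the minimum. These shares, 16.7% and 12.5%, were near the background of 15.8% higher and 10.3% lower. The median log2 ratio was -0.37 over the members and -0.12 over all sequences compared. All 4 higher sequences were named miR5368: both of the nested pair gma-MIR5368-p5_1ss7TC_1 and gma-MIR5368-p5_1ss7TC_2 had a log2 ratio of 1.495, gma-MIR5368-p3_1ss14CA one of 1.15 and gma-MIR5368-p5_2ss14GA18AG one of 1.04. The lower ones were gma-MIR6300-p3_1ss15AG at -2.10, gma-MIR5368-p3_2ss1AT18CA at -1.27 and gma-miR4995_L-2R+4 at -1.11. The differences ran both ways within miR5368.

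Between the fed libraries, 12 of 26 compared members were higher in T3 than in T1 and none was lower, with a median log2 ratio of 0.92. The background was 13.9% higher and 3.64% lower, with a median of 0.10. Counting repeats once gave 9 of 22, and without miR5368 7 of 16 were higher, against 12.7% and 11.6% of all sequences compared. Of the calls, miR6173 gave 6 of 6 compared, followed by miR5368 with 5 of 10 and miR4995 with 1 of 4. None of the 6 compared sequences of miR6300, miR8175 and miR6478 was called, too few to differ from the background of 13.9%. Only 3 of 15 miR6300 sequences, 2 of 3 of miR8175 and 1 of 3 of miR6478 reached the minimum. The ratio of T3 to T1 was 3.69 over miR6173 (counting interval 2.81 to 4.90), 2.13 over miR5368 (1.98 to 2.28) and 1.92 over miR4995 (1.73 to 2.13). Over miR6300 it was 1.27 (1.09 to 1.48), over miR6478 1.10 (0.794 to 1.53) and over miR8175 1.02 (0.785 to 1.33). CK3 takes no part in this contrast, but the names were chosen with these values known.

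After 3 days of feeding, 29 of 44 compared members were lower in T3 than in CK3 and none was higher, against a background of 23.2% lower and 24.9% higher. CK3 chose the members, so this count is a description. In stretch 2 of miR5368 none of 4 compared sequences was called, and the stretch was nearly level, at 138 in CK3 and at 131 in T3. Set against CK1 in place of CK3, 12 of 28 members were higher in T3 and 2 were lower, where the background was 20.2% higher and 7.51% lower. Of these 12, 7 were named miR5368, 3 miR6173 and 2 miR6300. The 2 of miR6300 were the 19 and 20 nt sequences, and the 2 lower ones were its 24 nt gma-MIR6300-p3_1ss15AG and its 25 nt gma-miR6300_L-1R+8. Against CK3, 34 of 44 compared members were lower in T1 and none was higher, where the background was 25.8% lower and 16.3% higher. As CK3 chose the members, that count too is only a description. These comparisons share libraries with one another and are not independent.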

How the data were processed

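Per the labels' protocols, total RNA of 4 maize leaf samples (Trizol) went into TruSeq Small RNA libraries that were read on an Illumina HiSeq. The protocol speaks of more libraries than were analysed here. The authors deposited a normalized signal for each microRNA sequence and library, per the file headers. How they scaled it, and which aligner, genome build and microRNA caller they used, is not given in the sources used here. The members and lists were chosen with earlier results of these data known. Each distinct sequence was used once. Stretches were joined at 12 identical bases, and the step of 1 read was the largest of which every member value was a whole multiple. Over all 319 sequences, the share of nonzero values that were whole multiples of the step was 90.4% to 93.8%. The others were fractions of it, so no test on counts was run. Values divided by the step served as implied reads for the intervals, shares and totals. Calls between libraries used log2(value + 1), a 2-fold difference and a minimum of 10 in the higher library. This scale understates the difference of low sequences listed in both libraries, and a 0 can hide a value of up to 5 reads. Sequences named were the 3 with the highest mean in each name, the 5 largest log2 ratios in each direction for 4 of the comparisons, and those listed at 0 in 3 libraries. Further ones were named after their values were seen: the leading sequences of each stretch and those shown or given for the miR6300 lengths. The calls, the joining of stretches and the search for the step were tested on simulated data. Alternatives were other pseudocounts, minimums and scalings, merging of repeats and leaving out miR5368. Python 3.11.15, pandas 2.3.3, numpy 2.4.6 and scipy 1.17.1 were used.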

Additional observations from a re-analysis of the deposited data

Results flagged for a closer look

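gma-MIR5368-p3_1ss14CA differed in opposite directions at the 2 feeding times. T1 stood at 17.6 normalized units against 7.36 in CK1 (log2 ratio 1.15), whereas T3 stood at 38.0 against 126 in CK3 (log2 ratio -1.71). The difference between the 2 ratios was not tested, each rests on a pair of single libraries, and CK3 served to choose the name. Against CK1, T3 was also higher. The CK1 value stands for only 10 implied reads. Other miR5368 sequences, among them gma-MIR5368-p3_1ss4AT and gma-MIR5368-p5_2ss14GA18AG, had the same signs of the ratios, but not all did.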

How the results depend on the processing

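Every one of the 12 member counts stayed within 1.5 times under a pseudocount of 0.1, equal library totals, median-of-ratios scaling and merging of repeats. These scalings moved the median log2 ratio of all sequences between CK3 and CK1 from 0.22 to -0.06 (equal totals) or 0.53 (median of ratios), and that between T3 and CK3 from 0.01 to 0.31 or -0.33. Counts under the alternatives are given with the members compared and, in brackets, the share of all sequences compared that the same setting called. A pseudocount of 10 gave 2 of 24 higher for T1 against CK1 (9.7%) and 19 of 44 lower for T3 against CK3 (13%). It gave 7 of 26 higher for T3 against T1 (6.06%) and 1 of 28 lower for T3 against CK1 (4.62%). As reported these were 4, 29, 12 and 2. Using no minimum brings in values at the 5-read limit. There, 16 of 50 were higher (36%) and 8 of 50 lower (11%) for T1 against CK1. For T3 against CK3 7 of 56 were higher (40.4%), and for T1 against CK3 5 of 54 (38.7%). For T3 against T1 21 of 54 were higher (19.2%), and for T3 against CK1 26 of 54 (37.6%). The higher counts for T1 against CK1, T3 against CK3 and T1 against CK3 were thus below the share of all sequences. A minimum of 50 compared fewer members and left 16 of 16 higher for CK3 against CK1 (26.2%) and 12 of 17 lower for T3 against CK3 (17.2%). It left 4 of 13 higher for T3 against T1 (6.41%) and 13 of 16 lower for T1 against CK3 (19%). For T3 against CK1 6 of 13 were higher (15.9%) and 0 lower (3.66%). Without miR5368 there were 0 of 15 higher for T1 against CK1 (14.1%), 7 of 16 for T3 against T1 (11.6%) and 5 of 18 for T3 against CK1 (17.2%).

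Equal totals moved the summed values in CK3 to 1961 for miR5368, 784 for miR6173, 870.3 for miR4995 and 224 for miR6300, and that of miR5368 in T3 to 941. Median-of-ratios scaling gave 2492, 996, 1106 and 285 in CK3 for the same names. Merging nested repeats gave, in CK3, T1 and T3, 2113, 381 and 809 for miR5368, and 39.0, 415, 21.2 and 78.2 for miR6173 in CK1, CK3, T1 and T3. Merging numbered repeats as well, an alternative chosen after seeing the data, left these sums as they were and gave 198 in CK3 and 123 in T3 for miR6300. The most abundant sequence alone was, in CK1, CK3, T1 and T3, at 135, 671, 55.1 and 174 for miR5368, 22.8, 217, 13.0 and 28.2 for miR6173, 122, 340.2, 73.6 and 131 for miR4995, 22.8, 43.8, 37.8 and 61.3 for miR6300, and 22.1, 23.9, 25.4 and 21.5 for miR8175. For miR6478 it was at 17.6 in T1 and 15.1 in T3. CK3 stayed the highest library for every name under these alternatives, except that T3 was highest for the single sequence of miR6300 and, under equal totals, for miR8175 and miR6478, and T1 for the single sequence of miR8175.

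No paired analysis was possible because each group holds 1 library, and leaving out a replicate would leave a group empty. Depth limits the low members most, since a 0 in CK1 or CK3 stands for a higher limit than a 0 in T1 or T3.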
